A study of Mus musculus with 7 samples.

Results

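The genes described here encode the nuclear subunits of respiratory complexes II, III and IV, cytochrome c and ATP synthase. They were taken by symbol, as Sdha to Sdhd, all symbols starting with Uqcr, with Cox4 to Cox8 and with Atp5, and Cycs and Cyc1, leaving out Cox4nb, which only shares the letters. This gave 49 of the 24319 rows of the table, with 4 genes for complex II, 9 for complex III including Cyc1, 1 for cytochrome c, 18 for complex IV and 17 for ATP synthase. Atp5s and Atp5sl match by name without being core subunits of the enzyme. RNA levels are given as FPKM, a fragment count scaled by transcript length and by the size of the library.

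The libraries come from B6D2F1 mouse embryos of wild type genotype, made by somatic cell nuclear transfer (SCNT): a cumulus cell, one of the somatic cells around the egg, is injected into an oocyte without its own chromosomes, and the construct is activated with strontium. Embryos of every group received mRNA for the histone demethylase Kdm4a, so no group lacks it. Values are given in the order of the groups and of their replicate numbers. In FOC+K (2 libraries) the recipient oocytes were fresh, in CROC+K (3 libraries) they had been vitrified and warmed, and in CROC+K+M (2 libraries) embryos from vitrified oocytes were also given 10 µM melatonin, a hormone with antioxidant action. RNA with an integrity number above 7.0 was taken from 50 to 100 embryos together, so embryos that differ within a pool are averaged. The labels give the 2-cell stage for all 7 libraries, although the treatment protocol also mentions blastocysts, and a vehicle is named only for the series.

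As background, electrons from succinate enter the respiratory chain at complex II, which is also an enzyme of the citric acid cycle, pass through complex III to cytochrome c, and reach oxygen at complex IV. Complexes III and IV move protons out of the mitochondrial matrix, and ATP synthase makes ATP as the protons return through its membrane rotor. The mouse egg carries a large store of mitochondria and of their nuclear-encoded messages, and the cleaving embryo relies on pyruvate oxidation before the blastocyst stage. Complex II is wholly encoded in the nucleus, whereas catalytic or proton-carrying subunits of the other complexes come from mitochondrial DNA. None of the 13 symbols searched for protein genes of mitochondrial DNA matched a row, and these genes are not analysed here.

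1 library stood apart from the rest. CROC+K+M replicate 1 reached a correlation of at most 0.875 with any other library over the tested genes, and its 24 trophectoderm marker genes summed to 26655 FPKM, or 2252 without Fabp3, against 98.7 to 185 in the other 6 libraries (98.3 to 181 without Fabp3). Of these markers 21 were highest there, and Cdx2, the defining transcription factor gene of that lineage, was at 6.97 FPKM in it and listed at 0 in the other 6. CROC+K+M replicate 2 had the lowest sum of all, 98.7. The 20 cumulus cell markers summed to 23.9 to 39.7. The 13 inner cell mass markers summed to 421 in CROC+K+M replicate 1, 93.3 in replicate 2 and 126 to 262 elsewhere. Of these 13, however, only 3 were highest in CROC+K+M replicate 1, against 3 in replicate 2 and 4 in FOC+K replicate 2. The 10 oocyte markers were all detected in each library, and their sum was lowest with melatonin, at 3796 and 3898, against 4745 to 6303 in the other 5. FPKM values added up to between 552356 and 1017995 per library, the highest in CROC+K+M replicate 1. Rn45s, a ribosomal RNA precursor, was between 1047 and 2114 FPKM in both FOC+K libraries and CROC+K replicate 1 and between 175 and 266 in the other 4. Results that rest on CROC+K+M replicate 1 are therefore given with and without it, and its part in them beyond that was not tested.

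Upstream sequences of 4 members are shown because 2 of them are the paired isoform genes that the levels set apart and the other 2 carry a motif common among these genes. NRF1 (nuclear respiratory factor 1) is a transcription factor known for binding promoters of respiratory genes. Each sequence is the 250 bases before the RefSeq transcription start in build GRCm38.p6, 5′ to 3′ on the gene's strand, and capitals mark matches to the NRF1 motif, which is GCGCA, any base, then GCGC. Cox6b1 lies at chr7:30626115-30626364, Cox6b2 at chr7:4753095-4753344, Cox6a1 at chr5:115348959-115349208 and Atp5k at chr5:108434400-108434649, all on the minus strand. The deposited table is from another build, mm9, and holds no coordinates of its own.
Cox6b1: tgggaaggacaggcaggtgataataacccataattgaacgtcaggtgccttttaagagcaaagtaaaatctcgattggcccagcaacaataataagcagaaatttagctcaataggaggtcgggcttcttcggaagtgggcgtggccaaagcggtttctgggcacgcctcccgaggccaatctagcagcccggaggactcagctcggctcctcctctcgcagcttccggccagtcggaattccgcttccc
Cox6b2: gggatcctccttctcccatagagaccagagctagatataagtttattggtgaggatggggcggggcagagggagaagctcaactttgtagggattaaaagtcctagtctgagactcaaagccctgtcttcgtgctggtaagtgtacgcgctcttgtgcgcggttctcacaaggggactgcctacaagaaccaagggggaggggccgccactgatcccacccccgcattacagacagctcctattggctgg
Cox6a1: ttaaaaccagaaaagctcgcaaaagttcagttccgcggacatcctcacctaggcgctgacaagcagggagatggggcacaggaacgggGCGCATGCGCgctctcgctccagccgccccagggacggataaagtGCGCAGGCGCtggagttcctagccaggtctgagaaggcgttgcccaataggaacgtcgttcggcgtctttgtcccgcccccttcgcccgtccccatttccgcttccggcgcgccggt
Atp5k: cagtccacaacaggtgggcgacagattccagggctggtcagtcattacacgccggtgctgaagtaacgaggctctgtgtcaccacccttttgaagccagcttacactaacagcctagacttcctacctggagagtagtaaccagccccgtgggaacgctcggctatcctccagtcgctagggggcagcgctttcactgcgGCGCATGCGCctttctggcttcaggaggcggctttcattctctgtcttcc
The Cox6a1 sequence holds the motif at 2 places and the Atp5k sequence at 1, while those of Cox6b1 and Cox6b2 hold none. Over windows of 300 bases (250 before and 50 after the start, both strands searched), the motif was present in 10 of the 38 members with a promoter entry (26.3%), in 11.4% of the tested genes and in 5.19% of all 27025 genes of the promoter table. The members were Sdha, Sdhd, Uqcrc1, Cox6a1, Atp5c1, Atp5g2, Atp5g3, Atp5h, Atp5k and Atp5o. The ETS-family motif CCGGAAGT was in 4 of these 38 members (10.5%), Uqcr11, Uqcrh, Cox8a and Atp5h, against 9.06% of tested genes. The YY1 motif AAGATGGC was in 4 of 38 (10.5%), Atp5f1, Atp5j, Atp5j2 and Atp5sl, against 5.36%. A gene with 2 windows was counted if either held the motif, and the 38 include Cox7b2 and Cox8b, which were not among the tested genes. No test was made of these shares, and a match of letters does not show binding.

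In the deposited FPKM, messages of these genes were abundant in every library, and within each complex the levels spanned a wide range. 27 of the 49 members were among the 500 highest rows by mean FPKM, and 4 were among the 100 highest: Cox8a, Cox6b2, Cox6c and Atp5g1. Cox8a, the ubiquitous form of the smallest complex IV subunit, was the highest member, at 2953 and 3285 FPKM with fresh oocytes, 3371, 5584 and 5229.5 with vitrified ones, and 6334 and 4529 with melatonin. It was the most abundant member in each of the 7 libraries. Cox6b2, known as the testis form of a subunit on the intermembrane side of complex IV, came next by mean, at 1422 and 1357 FPKM with fresh oocytes, 1523, 2314 and 2589.5 with vitrified ones, and 1467 and 2609.7 with melatonin. Its level in CROC+K+M replicate 1 lay between those of FOC+K replicate 1 and CROC+K replicate 1.

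Of the 4 complexes, which differ in gene number, complex IV had the largest summed FPKM and complex II the smallest. Cox8a and Cox6b2 weighed heavily in the complex IV sum, at 2953 and 1422 of 7322 FPKM in FOC+K replicate 1. Summed FPKM of the 18 complex IV genes was 7322 and 7908 in FOC+K, 8509 to 12029.8 in CROC+K, and 30394 and 12998 in CROC+K+M replicates 1 and 2. The 17 ATP synthase genes summed to 2714 to 3496 in the 5 libraries without melatonin, and to 16972 and 4850.5 in the CROC+K+M libraries. For the 9 complex III genes the sums were 888 to 1145, then 10283 and 1703, and for the 4 complex II genes they were 50.5 to 136, then 606 and 123. All 49 genes together took 1.91% to 2.30% of the FPKM of a library in the 5 libraries without melatonin, 5.74% in the first CROC+K+M library and 2.72% in the second. Replicate 2 was thus above the range of the libraries without melatonin in this share, and replicate 1 was far above both.

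**Figure D1:**
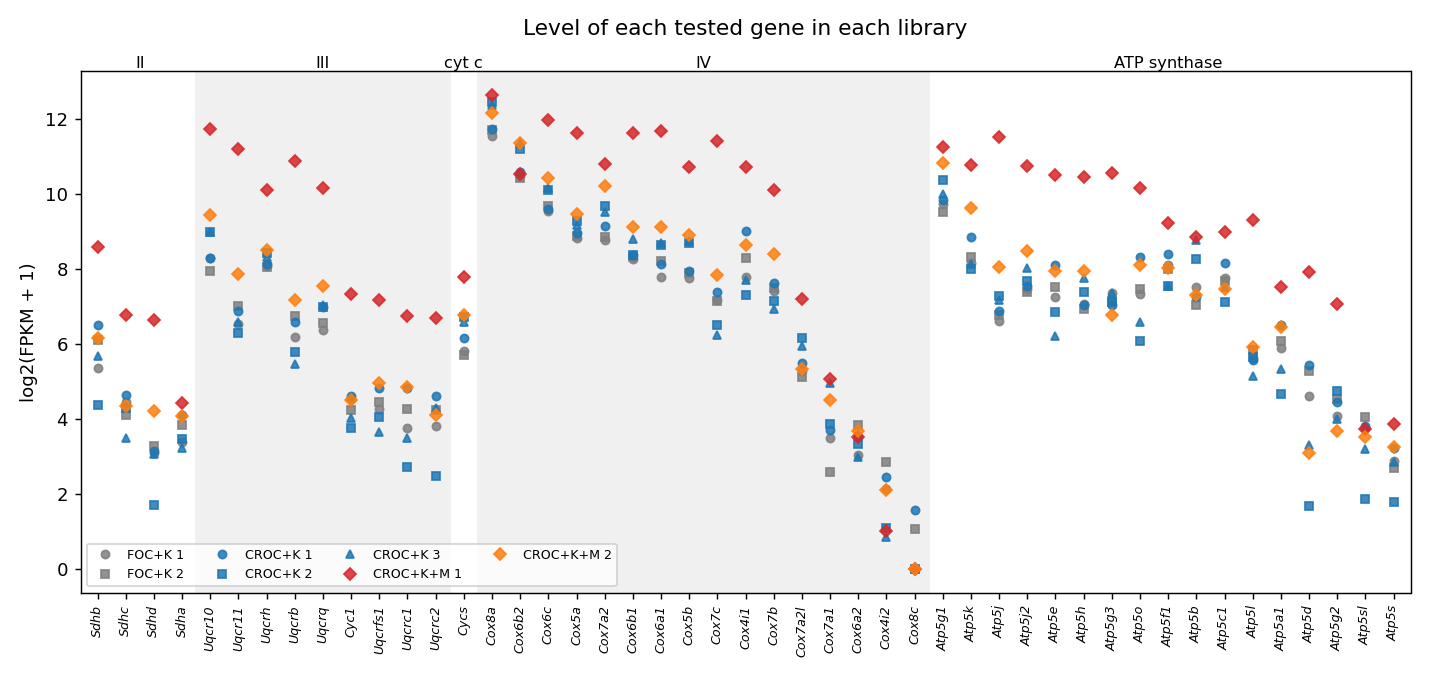
Level of each of the 47 tested genes in each library, as log2(FPKM + 1) on the vertical axis, with genes ordered by complex and then by mean FPKM; each point is 1 library. The CROC+K+M replicate 1 points are the highest of the 7 for 42 of the 47 genes, while Cox6b2 and Cox4i2 are among the exceptions.

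47 of the 49 members passed the filter of at least 1 FPKM in 2 or more libraries. Cox8b, a heart and muscle form, was listed at 0 in all 7 libraries, and Cox7b2, a testis form, was listed at 0 in 6 and at 0.50 in CROC+K+M replicate 1. Cox8c, another testis form, passed only through 1.10 FPKM in FOC+K replicate 2 and 1.98 in CROC+K replicate 1, and was listed at 0 elsewhere. These 3 genes are near or at the bottom of the measured range, so a change in them was not detectable.

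CROC+K+M was set against CROC+K to see what differs with melatonin when the oocyte has been vitrified. Members had higher mean levels with melatonin almost throughout, with 44 of 47 above CROC+K in the fitted mean, against 54.1% of all 12274 tested genes. The median log2 change of the members was 1.50, against 0.06 over all tested genes, and 31 of 47 had a log2 change above 1, against 11.2%. When CROC+K+M replicate 1 was left out, the median was 0.56 against 0.03 over all genes, 39 of 47 had a higher mean (background 52.3%), and 8 of 47 had a log2 change above 1 (background 8.16%). With equal FPKM sums and both libraries, the median was 1.24 where that of all genes was -0.14. The size of the difference therefore rested mostly on CROC+K+M replicate 1, and the direction was also present in replicate 2. With the trend against transcript length removed as well, the median without replicate 1 was 0.34 in place of 0.56, and 4 of 47 members were higher at an unadjusted p under 0.05, against 3.53% of all genes. The oocyte markers differed the other way: 8 of 10 had a lower mean with melatonin and 2 a higher one, where 54.1% of all tested genes had a higher mean. At an unadjusted p under 0.05 in limma, 3 of 10 were lower, against 3.75% of all tested genes. Zp2, an egg coat gene, had a change of -1.27 ± 0.28 (SE), or -1.34 ± 0.33 without replicate 1. The part of this shift in the members' difference was not tested. In these bulk pools, fewer cells of a kind and less RNA per cell cannot be told apart.

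No gene passed the threshold of 0.05 on the adjusted p in limma, among the members or elsewhere (0 of 12274, background 0.0%). The smallest adjusted p among members was 0.409. At an unadjusted p under 0.05, 26 of 47 members were higher, against 6.69% of all tested genes, and 0 of 47 were lower, against 3.75%. Over all genes these were 821 higher and 460 lower, and limma with array weights also called 0 at the adjusted threshold. Without CROC+K+M replicate 1, 7 of 47 members were higher at an unadjusted p under 0.05, against 4.02%, and 0 were lower, against 4.38%. Those higher were Sdhd, Uqcr11, Uqcrb, Cox7b, Cox7c, Atp5j and Atp5k. In that fit the lone library of the group is assumed to vary like the other groups. Both CROC+K+M libraries were above all 3 CROC+K libraries for 24 of 47 members, against 12.3% of all genes, and both were below for 0 of 47, against 11.2%.

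**Figure D2:**
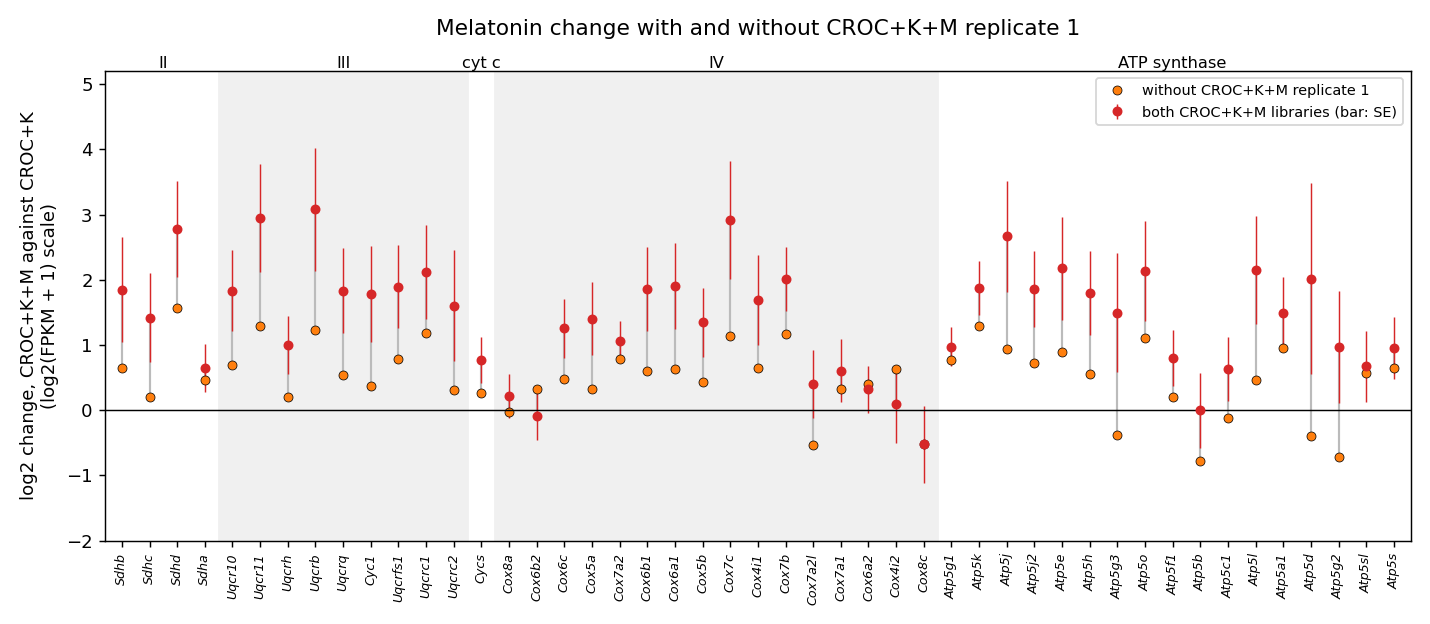
Log2 change of CROC+K+M against CROC+K for each tested gene, on the log2(FPKM + 1) scale, ordered by complex; red points are the fit of all 7 libraries with the standard error as bars (2 libraries against 3), orange points leave out CROC+K+M replicate 1, and grey lines join both values of a gene. Most points lie above 0 in both fits, with medians of 1.50 and 0.56.

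All 4 complex II genes had a fitted mean above that of CROC+K, and 1, an anchor gene, was higher at an unadjusted p under 0.05 (6.69% of all tested genes). Sdhd, which encodes an anchor subunit that binds heme and ubiquinone, was at 7.50 and 8.72 FPKM with fresh oocytes, 7.84, 2.27 and 7.28 with vitrified ones, and 98.1 and 17.4 with melatonin. Both CROC+K+M libraries were above the other 5, with a log2 change of 2.78 ± 0.73 (SE; unadjusted p = 0.0059, adjusted p = 0.409 in limma) and 1.56 ± 0.61 without replicate 1. Sdhc, the second anchor, was at 20.8 and 16.1 FPKM with fresh oocytes, 23.7, 18.6 and 10.3 with vitrified ones, and 108 and 19.3 with melatonin, with a change of 1.42 ± 0.68 and of 0.21 ± 0.48 without replicate 1. Only replicate 1 was outside the range of the others.

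Sdhb, the iron-sulfur subunit that passes electrons from the flavoprotein to ubiquinone, was at 39.6 and 67.7 FPKM with fresh oocytes, 88.7, 19.6 and 50.4 with vitrified ones, and 379.7 and 70.1 with melatonin. CROC+K+M replicate 2 lay within the CROC+K range, and the change was 1.85 ± 0.81 (adjusted p = 0.483 in limma), or 0.64 ± 0.76 without replicate 1. Sdha, the flavoprotein that oxidizes succinate, was between 8.25 and 16.2 FPKM in the 5 libraries without melatonin and at 20.4 and 15.7 with it. Its mean over the 7 libraries, 13.3 FPKM, was the lowest of the complex, against 21.3 for Sdhd. In each of the 5 libraries without melatonin, however, Sdhd was below Sdha. The complex II median was 1.63 with both libraries and 0.55 without replicate 1.

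Of the complex III genes, 7 of 9 were higher with melatonin at an unadjusted p under 0.05 (6.69% of all tested genes), and both melatonin libraries were above all CROC+K libraries for 7 of 9 (12.3%). The median log2 change of the complex was 1.83, and 0.69 without replicate 1. The 2 largest changes were those of the small accessory subunit genes Uqcrb and Uqcr11. Uqcrb, which encodes a subunit near the ubiquinone site, was at 71.6 and 106 FPKM with fresh oocytes, 94.3, 53.4 and 43.3 with vitrified ones, and 1857 and 143 with melatonin. CROC+K+M replicate 1 was 29.2-fold above the CROC+K mean, the highest such ratio among the members, and replicate 2 was 2.25-fold above it. The log2 change was 3.08 ± 0.94 (adjusted p = 0.409 in limma), and 1.24 ± 0.48 without replicate 1.

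Uqcr11, the gene of the smallest complex III subunit, was at 90.4 and 127 FPKM with fresh oocytes, 117, 76.4 and 95.3 with vitrified ones, and 2326 and 233 with melatonin. Both melatonin libraries were above all others, with a change of 2.94 ± 0.83 (adjusted p = 0.409 in limma), and 1.29 ± 0.36 without replicate 1. Uqcr10, another small subunit gene, was the most abundant of the complex, at 312 and 243 FPKM with fresh oocytes, 309.9, 499.7 and 505 with vitrified ones, and 3369.8 and 690.0 with melatonin. Here CROC+K replicates 2 and 3 were already above the FOC+K libraries, and the change against CROC+K was 1.83 ± 0.62, or 0.69 ± 0.39 without replicate 1. The electron-carrying subunits were far less abundant: Cyc1, which encodes cytochrome c1, was between 12.6 and 23.3 FPKM without melatonin and at 159 and 21.6 with it, and Uqcrfs1, the Rieske iron-sulfur protein gene, was between 11.4 and 27.1, then at 144 and 29.9. For Cyc1 the replicate 2 value lay within the range of the libraries without melatonin. Low levels were not particular to the electron-carrying subunits. The core protein genes Uqcrc1 and Uqcrc2 had means over the 7 libraries of 29.5 and 27.9 FPKM, against 38.8 for Cyc1 and 38.1 for Uqcrfs1.

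Cycs, the cytochrome c gene, encodes both the electron carrier between complexes III and IV and, once released into the cytosol, a trigger of apoptosis. Its levels were 54.6 and 50.7 FPKM with fresh oocytes, 70.7, 104 and 95 with vitrified ones, and 217 and 107 with melatonin. The 3 groups did not overlap, but CROC+K replicate 2 and CROC+K+M replicate 2 were nearly equal, and the change was 0.77 ± 0.36 (adjusted p = 0.496 in limma) or 0.27 ± 0.33 without replicate 1. Cycs has many processed copies in the mouse genome, so the share of fragments assigned to it is uncertain, as it is for other small genes of this kind.

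Among complex IV genes, 9 of 16 were higher at an unadjusted p under 0.05 (6.69% of all tested genes), and the median change was 1.16, or 0.46 without replicate 1. Cox7b, a small membrane subunit gene, was at 168 and 178 FPKM with fresh oocytes, 197, 139 and 119 with vitrified ones, and 1089.6 and 333 with melatonin. Its change of 2.01 ± 0.49 had the smallest unadjusted p of the complex (0.0038, adjusted p = 0.409 in limma), and without replicate 1 it was 1.16 ± 0.35. Cox7c, also a small membrane subunit, was at 143 and 140.4 FPKM with fresh oocytes, 165, 89.2 and 73.6 with vitrified ones, and 2686 and 228 with melatonin. The change was 2.92 ± 0.91, and 1.14 ± 0.46 without replicate 1. In both genes, CROC+K replicates 2 and 3 were the lowest libraries and both melatonin libraries the highest.

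Cox7a2, the common form of a subunit at the dimer face of complex IV, was higher in each melatonin library than in any other, at 431 and 456 FPKM with fresh oocytes, 556, 807 and 725 with vitrified ones, and 1757 and 1182 with melatonin. The change was 1.07 ± 0.30 (adjusted p = 0.409 in limma) and 0.78 ± 0.33 without replicate 1. Cox8a and Cox6b2, the highest genes of the complex, had changes smaller than their standard errors. The Cox8a change was 0.21 ± 0.34, and without replicate 1 it was -0.03 ± 0.42, below 0. It was also below 0 with equal FPKM sums per library (-0.04), with the trend against transcript length removed (-0.16) and with high against low Rn45s as a further term (-0.01). The Rn45s term here amounts to setting CROC+K replicate 1 apart, as only CROC+K held libraries of both kinds. The Cox6b2 change was -0.09 ± 0.36, with a lower mean in CROC+K+M of 2039 ± 808 (SD, n = 2) against 2142 ± 554 (SD, n = 3), and without replicate 1 it was 0.32 ± 0.40, above 0. Cox8c was the other complex IV gene with a lower fitted mean, at -0.53 ± 0.59, from the few values given above.

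Of the 17 ATP synthase genes, 9 were higher at an unadjusted p under 0.05 (6.69% of all tested genes), and the median change was 1.50, or 0.57 without replicate 1. Atp5k, the gene of the small membrane subunit e, which takes part in dimer formation, was at 285 and 315 FPKM with fresh oocytes, 457, 255 and 277 with vitrified ones, and 1745 and 781 with melatonin. Its change of 1.87 ± 0.41 had the smallest unadjusted p of all members (0.0022, adjusted p = 0.409 in limma), and it was 1.29 ± 0.40 without replicate 1. Atp5j2, the gene of membrane subunit f, was at 175 and 166 FPKM with fresh oocytes, 186, 201 and 259.6 with vitrified ones, and 1699 and 354 with melatonin, with a change of 1.86 ± 0.59, or 0.73 ± 0.31 without replicate 1. For both genes the melatonin libraries were above the other 5.

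The ratio of CROC+K+M replicate 2, which is 1 library, to the CROC+K mean varied among the parts of ATP synthase. It was above 1 for 4 of 4 peripheral stalk genes (median 1.58: Atp5f1, Atp5h, Atp5j, Atp5o) and for 3 of 3 small membrane subunit genes (median 1.64: Atp5j2, Atp5k, Atp5l). It was above 1 for 2 of 5 genes of the F1 head and central shaft (median 0.876) and for 1 of 3 genes of the c ring (median 0.761). All 5 F1 genes of replicate 2 lay within the range of the 3 CROC+K libraries, as with Atp5c1, at 176 FPKM against 284, 137 and 181. The share of all tested genes with a ratio above 1 is not given, so these counts describe the members' levels only. Atp5b, the catalytic beta subunit gene, was at 182 and 131 FPKM with fresh oocytes, 149.6, 305 and 429 with vitrified ones, and 462 and 157 with melatonin. Replicate 2 was near the FOC+K libraries and CROC+K replicate 1, and the change against CROC+K was -0.0021 ± 0.57, which makes it the ATP synthase gene with a fitted mean not above that of CROC+K. Atp5d, a subunit of the central shaft, was at 23.4 and 37.7 FPKM with fresh oocytes, 42.2, 2.21 and 8.86 with vitrified ones, and 238 and 7.43 with melatonin, with 2 of the 3 CROC+K libraries and CROC+K+M replicate 2 well below the rest. In CROC+K+M replicate 1, by contrast, all 17 ATP synthase genes were above the CROC+K mean. The difference between these parts of the enzyme was not tested.

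CROC+K+M replicate 1 was the highest library for 42 of 47 members, against 26.7% of all tested genes. It was more than 2 times the highest of the other 6 libraries for 33 members and more than 5 times for 15. Its ratio to the CROC+K mean had a median of 6.15 and was above 10 for 8 members. For CROC+K+M replicate 2 the ratio had a median of 1.37, was above 2 for 6 members, and was highest for Sdhd at 3.00. For these counts by fold the share of all tested genes is not given, so they describe the members' levels only. Replicate 2 was above all 3 CROC+K libraries for 26 of 47 members, against 25.9% of all genes, and below all 3 for 3 of 47 (Cox7a2l, Atp5g2 and Atp5g3), against 23.2%. With each library scaled to the same FPKM sum, it was above for 22 of 47, against 22.0%. It was above all 5 libraries without melatonin for 25 of 47, against 21.2%. The trophectoderm markers that mark replicate 1 had their lowest sum in replicate 2, where Cdx2, Eomes, Elf5, Krt7 and Krt19 were listed at 0. That library was like those without melatonin in this, where 3 to 8 of the markers were listed at 0. Without Fabp3 the sum was 98.3 FPKM in CROC+K+M replicate 2 and 98.6 in CROC+K replicate 2.

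The members have short transcripts, with a median length of 730 bases against 2366 over all tested genes with a length. Within each of 6 length classes the members' median difference between CROC+K+M replicate 1 and the CROC+K mean was 1.23 to 3.58 on the log2 scale, where all genes of the same class had medians of -0.10 to 0.52. For replicate 2 the members' medians were 0.13 to 0.71 and those of all genes -0.02 to 0.32. The classes hold 2 to 18 members each.

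Several complex IV and ATP synthase subunits have more than 1 gene, and for the Cox6b, Atp5g, Cox4i and Cox6a genes the balance in CROC+K+M replicate 1 was outside the range of the other 6 libraries. Cox6b2 made up 81.1% to 87.6% of the summed FPKM of Cox6b1 and Cox6b2 in the 5 libraries without melatonin and 82.6% in CROC+K+M replicate 2, but 31.8% in replicate 1. Cox6b1, the somatic form, was at 304 and 315 FPKM with fresh oocytes, 329.8, 326 and 444 with vitrified ones, and 3154 and 549 with melatonin. The change in this balance in replicate 1 came from Cox6b1, since Cox6b2 was at 1467 FPKM there, within the range of the other libraries. The upstream sequences of both genes are printed above.

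The 3 genes Atp5g1, Atp5g2 and Atp5g3 encode the same mature c subunit of the membrane rotor behind different import sequences. Atp5g1 supplied 81.9% to 89.0% of their summed FPKM without melatonin. With melatonin this share was 59.9% in the first library and 93.8% in the second. Atp5g1 itself was at 851 and 724 FPKM with fresh oocytes, 900.3, 1324 and 1009.5 with vitrified ones, and 2417 and 1809.8 with melatonin, a change of 0.97 ± 0.29 (adjusted p = 0.409 in limma), or 0.77 ± 0.35 without replicate 1. Both melatonin libraries were above the other 5. Atp5g3 was at 161 and 138 FPKM with fresh oocytes, 129, 137 and 161 with vitrified ones, and 1486 and 108 with melatonin, and Atp5g2 at 15.7 and 21.8 FPKM with fresh oocytes, 20.6, 25.8 and 15.0 with vitrified ones, and 132 and 11.7 with melatonin. For both of these genes replicate 2 was the lowest of the 7 libraries and replicate 1 the highest. Because the c subunit genes and their processed copies are alike in part, the split of fragments among them is uncertain.

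**Figure D3:**
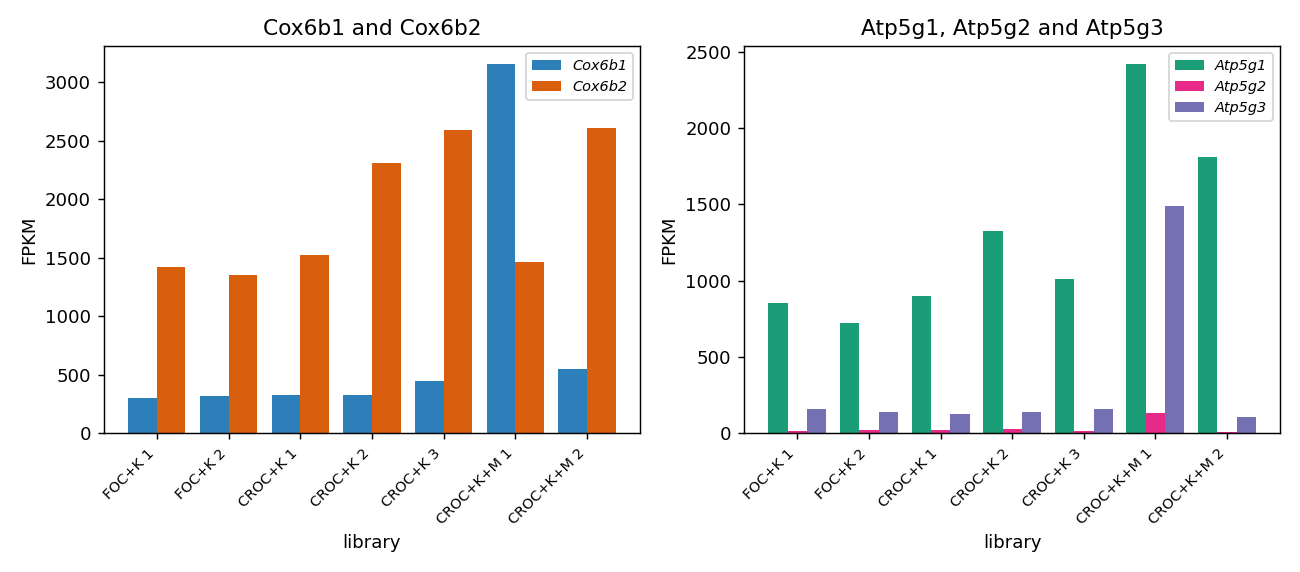
FPKM of Cox6b1 and Cox6b2 (left) and of Atp5g1, Atp5g2 and Atp5g3 (right) in each library; each bar is 1 library, with no error. Cox6b2 is the higher bar in 6 libraries and the lower one in CROC+K+M replicate 1, where it made up 31.8% of the pair.

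Unlike Cox6b2, the tissue-restricted isoform genes Cox4i2, Cox6a2 and Cox7a1 were low beside their common forms. Cox4i2, a form known from lung and from the response to low oxygen, was at 3.39 and 6.16 FPKM with fresh oocytes, 4.43, 1.13 and 0.804 with vitrified ones, and 1.01 and 3.27 with melatonin, and made up 0.0602% of the sum of Cox4i1 and Cox4i2 in CROC+K+M replicate 1 and 0.389% to 1.96% in the other 6 libraries. Cox4i1 was at 218 and 308 FPKM with fresh oocytes, 514, 155 and 206 with vitrified ones, and 1684 and 399 with melatonin. Cox6a2, the heart and muscle form, was between 6.86 and 13.3 FPKM in all 7 libraries, against 220.3 to 3222 for Cox6a1, and made up 0.321% of their sum in CROC+K+M replicate 1 and 1.66% to 4.29% elsewhere. Cox7a1, also a heart and muscle form, was at 10.3 and 5.02 FPKM with fresh oocytes, 12.1, 13.4 and 30.0 with vitrified ones, and 32.5 and 21.5 with melatonin, or 1.09% to 3.98% of the sum of Cox7a1 and Cox7a2. Cox7a2l, which encodes a factor for supercomplexes of III and IV, was at 37.4 and 33.4 FPKM with fresh oocytes, 44.2, 70.1 and 59.9 with vitrified ones, and 145 and 39.3 with melatonin, and CROC+K+M replicate 2 was below all 3 CROC+K libraries and above both FOC+K libraries. Cox7b, with 119 to 1089.6 FPKM, and Cox8a were the detected forms of their subunits, apart from the traces of Cox7b2 and Cox8c given above.

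CROC+K was set against FOC+K to see what differs after vitrification of the recipient oocyte. The members showed no common direction: 21 of 47 had a higher fitted mean in CROC+K, against 47.3% of all tested genes, 1 had a log2 change above 1, against 1.15%, and the median log2 change was -0.03, the same as over all genes. 0 of 12274 genes passed the adjusted threshold in limma, and the smallest adjusted p of a member was 0.9996. At an unadjusted p under 0.05, 1 of 47 members was higher, against 1.13%, and 0 were lower, against 1.05%, while over all genes 139 were higher and 129 lower. With array weights 0 genes passed the adjusted threshold, and 9 members were higher and 3 lower at the unadjusted one. The weights were 2.57 for both FOC+K libraries and 0.418 for CROC+K replicate 1. For the weighted fit the share of all genes is not given, so these counts have no background and the shares above do not apply. The 1 member higher without weights was Cox7a1, with a change of 1.13 ± 0.48 and unadjusted p = 0.049 in limma. The change was 0.74 without CROC+K replicate 3, the highest of its group at 30.0 FPKM, and 0.67 without FOC+K replicate 2, the lower of its group at 5.02 FPKM.

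Cox7a2 had the next smallest p among genes with a higher mean, with a change of 0.63 ± 0.30, and all 3 CROC+K libraries were above both FOC+K libraries. Cox4i2 (-1.03 ± 0.59) and Atp5sl (-0.95 ± 0.55) had the smallest p among those with a lower mean. Atp5sl, the gene of a protein related to the peripheral ATP synthase factor Atp5s, was at 12.6 and 15.5 FPKM with fresh oocytes, 12.9, 2.61 and 8.20 with vitrified ones, and 12.2 and 10.5 with melatonin, and in both genes CROC+K replicate 1 was like the FOC+K libraries. All 3 CROC+K libraries were above both FOC+K libraries for 14 of 47 members, against 9.65% of all genes, of which 8 were complex IV genes, and below for 0, against 9.47%. By complex the median change was -0.17 for II, -0.19 for III, 0.32 for IV and -0.13 for ATP synthase. The members' median depended on the scaling: it was -0.37 with equal FPKM sums, where the median of all genes was -0.30, and 0.20 with high against low Rn45s as a further term, where that of all genes was 0.03. Since both FOC+K libraries had high Rn45s, the value with this term rested on CROC+K replicate 1, the CROC+K library with high Rn45s.

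Many members were divided within CROC+K, along with Rn45s. CROC+K replicates 2 and 3 were above CROC+K replicate 1 and both FOC+K libraries for 18 of 47 members (38.3%), against 21.1% of all genes, and below them for 17 of 47 (36.2%), against 22.8%. Those above were Uqcr10, Uqcrh, Uqcrq, Cycs, Cox5a, Cox5b, Cox6a1, Cox6b2, Cox6c, Cox7a1, Cox7a2, Cox7a2l, Cox8a, Atp5b, Atp5g1, Atp5h, Atp5j and Atp5j2. Those below were Sdhd, Cyc1, Uqcrb, Uqcrc1, Uqcrfs1, Cox4i1, Cox4i2, Cox7b, Cox7c, Atp5a1, Atp5c1, Atp5d, Atp5e, Atp5f1, Atp5k, Atp5o and Atp5sl. Subunits of the same complex were thus on opposite sides, as with Atp5b, at 305 and 429 FPKM in replicates 2 and 3 against 149.6 in replicate 1, and Atp5o, the gene of the stalk subunit OSCP, at 66.8 and 94.6 against 318. Rn45s was 266 and 237 FPKM in CROC+K replicates 2 and 3 and 2114 in replicate 1. Median transcript length was 643.5 bases for the genes above, 1001 for the genes below and 699 for the members in neither set. Over the 47 members, log2 length and the log2 difference of replicates 2 and 3 from replicate 1 had a Pearson correlation of -0.19. The part of Rn45s or of length in this division was not tested further.

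**Figure D4:**
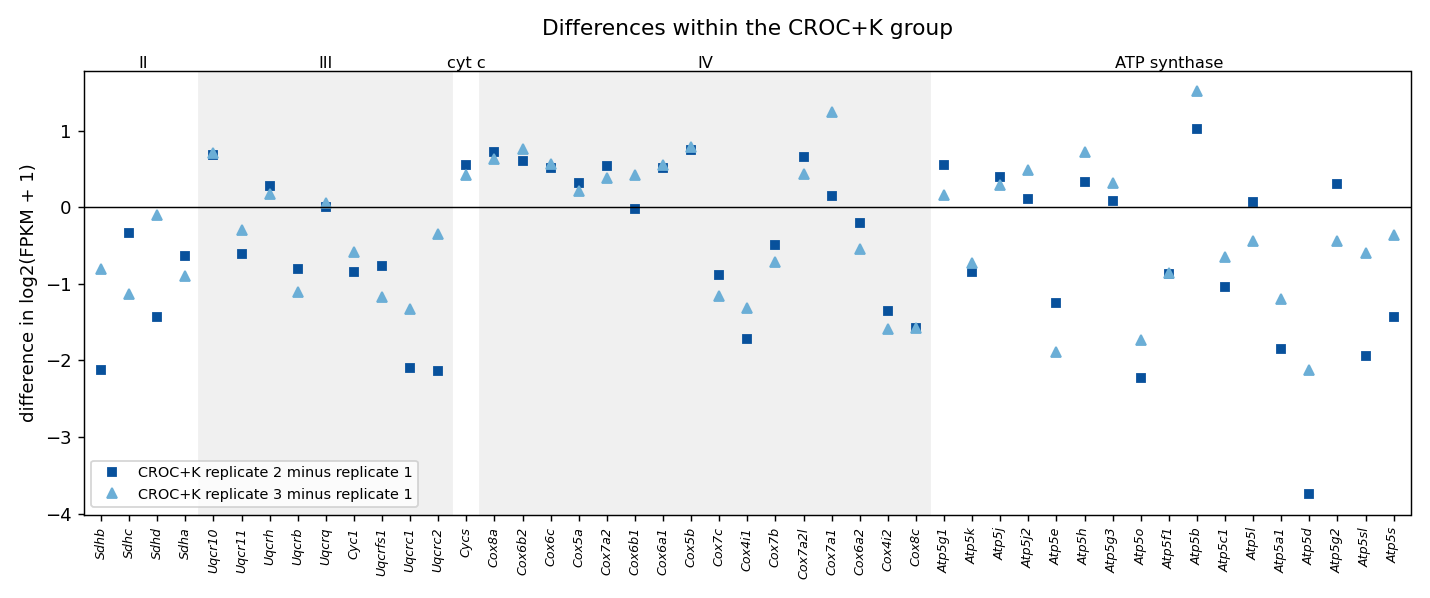
Difference in log2(FPKM + 1) of CROC+K replicates 2 (squares) and 3 (triangles) from CROC+K replicate 1 for each tested gene, ordered by complex; points above 0 are higher than replicate 1. Both replicates lie on the same side of 0 for 44 of the 47 genes. Of the 47, 19 are above, where 35.9% of all tested genes are, and 25 are below, where 39.2% are.

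CROC+K+M was also compared with FOC+K, which asks how vitrified oocytes with melatonin differ from fresh ones. It shares its melatonin libraries with the comparison against CROC+K, so both are given by their own values. 44 of 47 members had a higher fitted mean in CROC+K+M, against 52.9% of all genes, and 35 of 47 had a log2 change above 1, against 9.53%. Their median change was 1.64. When CROC+K+M replicate 1 was left out it was 0.62, with 39 of 47 higher (background 51.3%) and 13 of 47 above a log2 change of 1 (background 5.32%). 0 of 12274 genes passed the adjusted threshold in limma, 547 genes were higher and 246 lower at an unadjusted p under 0.05, and array weights also gave 0. Of the members 22 of 47 were higher at that level, against 4.46%, and 0 were lower, against 2.0%. Without replicate 1, 14 of 47 were higher, against 2.62%, and 0 lower, against 2.53%. With equal FPKM sums and without replicate 1, the median was 0.27 (-0.27 over all genes), with 8 members higher (background 0.912%) and 1 lower (5.29%) at that level. With the length trend removed and without replicate 1 it was 0.30, with 4 higher (1.71%) and 2 lower (2.8%). Beside the medians of 1.64, 0.62 and 0.30 the median of all genes is not given, so a shift of all genes is not set apart in them. Both melatonin libraries were above both FOC+K libraries for 34 of 47 members, against 21.3%, and below for 2 of 47, Cox4i2 and Atp5sl, against 19.7%.

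Cox7a2 had the smallest unadjusted p in this comparison, with a change of 1.70 ± 0.33 (adjusted p = 0.737 in limma) from 444 ± 18.0 (SD, n = 2) to 1470 ± 407 (SD, n = 2) FPKM. Atp5g1 followed with 1.41 ± 0.32, from 788 ± 89.8 (SD, n = 2) to 2113 ± 429 (SD, n = 2). Both genes were higher in each CROC+K library than in both FOC+K libraries, and higher again in each CROC+K+M library. Cox4i2 (-0.93 ± 0.65) and Cox8c (-0.53 ± 0.65) had the smallest p among members with a lower fitted mean, and both changes were above 0 with high against low Rn45s as a further term (0.54 and 1.04). Only CROC+K held libraries with high and with low Rn45s, so that term rested on CROC+K replicate 1 against replicates 2 and 3.

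Other genes of the same pathway were read from lists made for this purpose. Complex I, where NADH enters the chain, had 36 tested genes, and in 36 of them the CROC+K+M mean was above that of CROC+K, 20 at an unadjusted p under 0.05 and 0 lower. Over all tested genes 54.1% had a higher mean, and 6.69% were higher and 3.75% lower at that p. The median change of complex I was 1.70 (0.06 over all genes). Without replicate 1 it was 0.79 (0.03 over all genes), with 30 of 36 higher (52.3%) and 9 at that p (4.02%). Ndufa2, an accessory subunit gene, had the smallest p of the list, with a change of 1.28 ± 0.29 (SE). Of 34 tested assembly factor genes for complexes II to IV and ATP synthase, 9 were higher and 0 lower, against the same 6.69% and 3.75% of all genes. Without replicate 1, 2 of 34 were higher, Cox17 and Pet100, a share near the 4.02% of all genes, and 0 were lower. Cox17, a copper chaperone for complex IV, had a change of 3.84 ± 0.90, or 2.62 ± 0.91 without replicate 1.

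Of 9 tested genes for ATP and phosphate exchange and for the inhibitor of ATP synthase, 1 was higher and 1 lower at an unadjusted p under 0.05, against 6.69% and 3.75% of all genes, so with 9 genes these counts are close to the background. The lower one was Vdac1, an outer membrane channel gene, with a change of -0.69 ± 0.27 (SE), named after its value was seen. The higher one was Atpif1, the inhibitor that holds back ATP hydrolysis, at 78.7 and 105 FPKM with fresh oocytes, 103, 98.3 and 69.4 with vitrified ones, and 494 and 239 with melatonin, a change of 1.94 ± 0.38, or 1.41 ± 0.35 without replicate 1. Both melatonin libraries were above the other 5. Of 18 tested citric acid cycle genes, 4 were higher, Idh2, Idh3b, Idh3g and Suclg1, and 0 lower, beside the same shares of all genes. Without replicate 1, 2 of 18 were higher, Idh2 and Idh3b (4.02% of all genes), and 1 lower, Idh3a (4.38%), all named after their values were seen. Idh3b, a subunit gene of NAD-dependent isocitrate dehydrogenase, had a change of 3.59 ± 0.78, or 2.07 ± 0.43 without it. None of the genes in these 4 lists passed the adjusted threshold in limma. In CROC+K against FOC+K, 0 genes of the 4 lists were higher or lower at an unadjusted p under 0.05.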

How the data were processed

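RNA of pooled SCNT embryos was sequenced in 7 libraries (2 FOC+K, 3 CROC+K, 2 CROC+K+M), grouped by their titles. The authors deposited 1 FPKM value per gene and library; per the submitters' processing notes, mm9, STAR 2.5.2b, Cuffnorm, Cufflinks 2.2.1 and R 3.3.2 were used, and for the annotation and any scaling between libraries the sources used here give nothing. Cufflinks assigns fragments shared by near-identical genes by a model, and the table has gene symbols without coordinates. The labels' protocols name SMARTer Ultra Low Input and ScriptSeq v2 kits and speak of biological replicates; they do not say whether oocyte donors were shared between libraries.

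FPKM were used as deposited, as log2(FPKM + 1), which understates changes of low genes. The 1271 rows of small RNA and ribosomal RNA genes were left out, and genes with FPKM of at least 1 in 2 libraries (12274) were tested with limma 3.58.1 (R 4.3.3; intensity trend, 1 fit of 7 libraries, no term but the group, which leaves 4 degrees of freedom). P-values were two-sided and Benjamini-Hochberg adjusted over all tested genes, and the threshold was 0.05. The fit was tested on simulated data. The number of libraries limits the precision, and errors are limma's standard errors (SE) or SD. Transcript lengths and promoters were matched by symbol, promoters to RefSeq (GRCm38.p6) for 38 members.

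The members and lists were chosen with earlier results of these data known, so lists are described by counts and medians beside all tested genes. Named were, per complex, the 3 members with the smallest unadjusted p for the melatonin change and the highest one, members with a lower mean, the 2 smallest p per direction in the other comparisons, isoform genes, and the leading gene of each other list; further members are given for their part in a complex and were chosen after their values were seen. Alternatives tried were other pseudocounts, filters, scalings, library weights, a replicate block, an Rn45s term, separate groups and leaving out each library.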

Additional observations from a re-analysis of the deposited data

How the results depend on the processing

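Precision is limited by 2 or 3 libraries per group. No gene passed the adjusted threshold under any alternative except without CROC+K+M replicate 2, where limma called 658 genes against CROC+K and 546 against FOC+K (0 to 658 and 0 to 546 over the libraries left out), with the lone replicate 1 assumed to vary like the other groups. Against CROC+K the members' median log2 change was 0.56 to 2.66 over the libraries left out, without CROC+K+M replicates 1 and 2 respectively, and 0.34 with the length trend removed and without replicate 1; the latter setting, and equal FPKM sums without replicate 1, were added after seeing the data. The number of members higher at an unadjusted p under 0.05 was 7 to 37 over the libraries left out (12 without CROC+K replicate 2 and 15 without replicate 3), and 8 and 4 in the added settings with equal sums and with the length trend removed. The share of all genes at that p is not given here and can differ between settings, so these counts do not set the members apart from other genes. Cox8a, at 0.21, was at -0.041 with equal sums, -0.16 with the length trend removed, -0.013 with the Rn45s term, -0.028 to 0.46 over the libraries left out, and -0.039 and -0.31 in the added settings. Cox6b2, at -0.09, was at 0.060 with the replicate block, -0.51 to 0.32 over the libraries left out, and 0.31 with equal sums and without it.

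For CROC+K against FOC+K the members' median was -0.37 with equal sums, 0.20 with the Rn45s term, and -0.29 to 0.23 over the libraries left out. Members higher at an unadjusted p under 0.05 numbered 9 with array weights, 5 with only the groups compared, 0 to 5 over the libraries left out, and 0 with a pseudocount of 5, without a filter, with equal sums, with the length trend removed, with the replicate block and with the Rn45s term; members lower numbered 3 with array weights and 0 to 2 over the libraries left out. For CROC+K+M against FOC+K the median was 0.27 and 0.30 in the added settings, members higher numbered 11 with the Rn45s term and with only the groups compared, 12 to 37 over the libraries left out, and 8 and 4 in the added settings, and members lower 1 and 2 there. Cox4i2 and Cox8c were at 0.54 and 1.04 with the Rn45s term. In all comparisons that term rested on CROC+K replicate 1 against replicates 2 and 3, so it is no separate adjustment. For melatonin against none it gave the same members' median, 1.63, as leaving out CROC+K replicate 1. The cause of these differences was not tested. Same-numbered libraries did not deviate together (correlations of -0.46 to 0.03). In a group of 2 libraries the deviations mirror each other, so this cannot tell whether same-numbered libraries share donors or batches. With the replicate block the members' medians were 1.53, 0.13 and 1.64 for melatonin against none, vitrified against fresh and melatonin against fresh oocytes. In that order, 18, 0 and 24 members were higher at an unadjusted p under 0.05 in limma. For most counts in this paragraph the share of all genes at that p is not given, so they do not set the members apart from other genes.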
